A study of Mus musculus with 6 samples.

Results

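The nuclear RNA loci of mouse skeletal muscle described here are taken with the gene models annotated on their opposite strand: *Malat1* with *Gm37376*, a gene model that faces it on the opposite strand, *Neat1*, and *Zfp106* with *Gm26899*, which faces it in the same way. The 5 genes were taken by symbol from the deposited count tables, whatever their values, and they are 5 of the 52636 genes in those tables. RNA-seq was performed on tibialis anterior (TA) muscle of male mice, 3 of them iMS*Bmal1*+/+ and 3 iMS*Bmal1*-/-. Its stated purpose was to find which exons of titin change when the clock gene *Bmal1* is lost in adult muscle. Ribosomal RNA was depleted from total RNA, and libraries were made with a kit that keeps the strand of the RNA.

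All 6 mice were C57BL/6 and carried floxed *Bmal1* alleles together with HSA-MCM, a tamoxifen-inducible Cre driven by the human skeletal actin promoter, which acts in skeletal muscle fibers and not in the other cells of the tissue. The mice labelled HSA-MCM-*Bmal1*+/+ were injected into the peritoneum with the vehicle, sunflower seed oil with 15% ethanol, on 5 days, starting at 12 to 16 weeks of age. Those labelled HSA-MCM-*Bmal1*-/- were given tamoxifen, 2 mg a day, over 5 days by the same route. Muscles of both groups were taken 5 weeks later, so that recombination and tamoxifen exposure cannot be told apart in these libraries. In bulk muscle, fewer nuclei of a given cell type and less RNA per nucleus also cannot be told apart.

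*Malat1* is a long non-coding RNA that stays in the nucleus and collects in nuclear speckles, the bodies where splicing factors are stored. *Neat1*, its neighbor on the chromosome, is the RNA around which paraspeckles are built, and the 3′ ends of *Malat1* and of the long *Neat1* transcript are made by cleavage of a tRNA-like structure rather than by the usual polyadenylation. *Zfp106* encodes a zinc finger protein that binds RNA in the nucleus, and mice without it lose motor neuron function and develop muscle wasting.

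Totals over all genes were 2091912, 1997203 and 2716079 counts for iMS*Bmal1*+/+ replicates 1 to 3 and 2403438, 1616290 and 2068657 for iMS*Bmal1*-/- replicates 1 to 3. Replicates carry the number in their label and are always given in this order. Mitochondrial genes took 6.69%, 6.79% and 5.06% of the iMS*Bmal1*+/+ counts and 6.24%, 5.05% and 5.07% of the iMS*Bmal1*-/- counts, so that the groups overlapped. Levels are given in CPM, counts relative to the TMM-adjusted size of the library, and the 3 counts that a value of 0 allows came to between 1.14 and 1.80 CPM. *Bmal1* itself (*Arntl*) was counted 5, 4 and 11 times in iMS*Bmal1*+/+ muscle, against 13, 5 and 5 times in iMS*Bmal1*-/- muscle. The groups overlapped, the gene was too rarely counted to be tested, and the genotype labels were thus not checked by it.

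In the GRCm38 assembly (mm10), *Malat1* (ENSMUSG00000092341) covers 6983 bp on the minus strand at chr19:5795690-5802672, and its longest transcript is a single exon of this length. *Gm37376* (ENSMUSG00000102349) lies on the plus strand at chr19:5801941-5802393, and all 453 bp of it lie inside that exon, opposite *Malat1* positions 280 to 732 counted from its 5′ end. The remaining 6530 bp of *Malat1* face no annotated exon. *Gm37376* carries the annotation class TEC, a model that awaits experimental evidence, and it is the only annotated exon on the plus strand opposite *Malat1*.

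*Neat1* (ENSMUSG00000092274) covers 20771 bp on the minus strand at chr19:5824708-5845478. No annotated exon faces it, and the nearest gene on the plus strand, *Frmd8os*, starts 145 bp beyond its 5′ end. *Zfp106* (ENSMUSG00000027288), a protein-coding gene, extends over 57024 bp on the minus strand at chr2:120506820-120563843, with 10429 bp of exonic sequence. *Gm26899* (ENSMUSG00000097799), annotated as a long intergenic non-coding RNA, lies inside it on the plus strand at chr2:120532904-120539846, and 2719 bp of its 3328 bp of exons (81.7%) face exons of *Zfp106*.

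**Figure D1:**
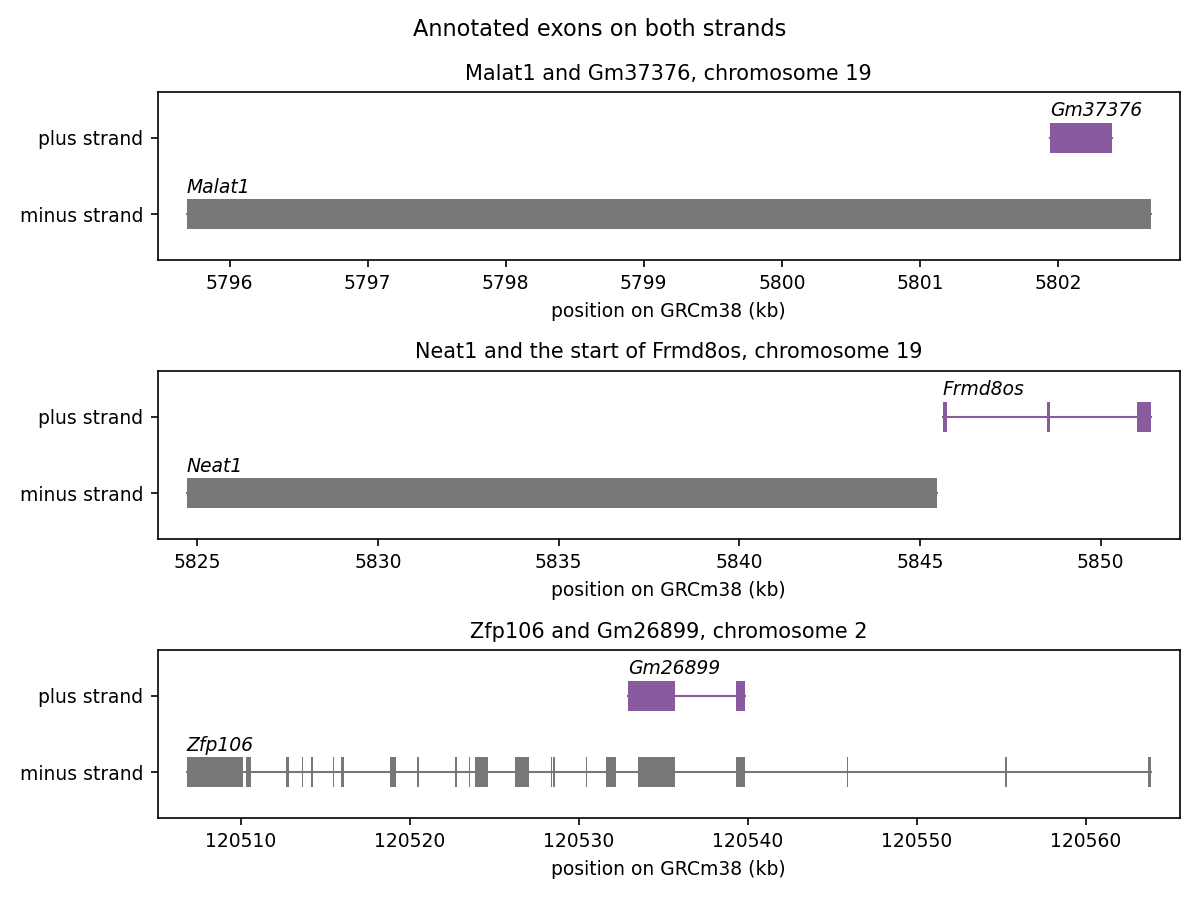
Annotated exons (boxes) and gene spans (lines) of GENCODE release 21 on the plus strand (upper, purple) and the minus strand (lower, gray), with the position in kb on GRCm38 along the horizontal axis. *Gm37376* and *Gm26899* lie within *Malat1* and *Zfp106* on the opposite strand, whereas no exon faces *Neat1*.

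The sequence shared by both sides is the same DNA read in opposite directions. The last 100 bases of *Gm37376*, at chr19:5802294-5802393 on the plus strand, and the same bases of *Malat1* on the minus strand are shown in full (GENCODE release 21 transcripts, GRCm38, 5′ to 3′), because here the strand alone tells the genes apart.
*Gm37376*, plus strand: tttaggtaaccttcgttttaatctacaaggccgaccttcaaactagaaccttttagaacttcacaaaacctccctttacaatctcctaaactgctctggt
*Malat1*, minus strand: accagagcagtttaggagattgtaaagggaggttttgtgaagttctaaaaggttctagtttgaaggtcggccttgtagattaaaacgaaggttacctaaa

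*Gm26899* has 2 exons, and its only intron (120535682 to 120539296 on chromosome 2) has the same length, 3615 bp, as the *Zfp106* intron between exons 4 and 5 (120535680 to 120539294), shifted by 2 bp. The 60 bases around each spliced junction (GENCODE release 21 transcripts, GRCm38) are shown on the plus strand, with the part that follows the junction in capitals, since reads across it differ between the models. The reverse complement of the *Zfp106* junction was not found in *Gm26899*, and the longest unbroken stretch in which the *Gm26899* transcript is the exact reverse complement of *Zfp106* is 2172 bases (65.3% of the transcript).
*Zfp106*, reverse complement across exons 5 and 4: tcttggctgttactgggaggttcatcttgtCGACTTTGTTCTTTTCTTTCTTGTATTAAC
*Gm26899*, across exons 1 and 2: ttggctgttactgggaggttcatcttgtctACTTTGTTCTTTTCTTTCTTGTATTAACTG

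Repeated sequence is unequally spread over the 5 genes. Of the 404 different stretches of 50 bases in *Gm37376*, 83 (20.5%) also occur, on either strand, in annotated transcripts of 714 genes outside the locus. The share was 1.70% for *Malat1*, 1.33% for *Neat1* and 0.0938% for *Zfp106*, and 0 of the 3279 stretches of *Gm26899* were found elsewhere. Counts on such stretches cannot be assigned to 1 locus with certainty, and how reads with several matches were treated is not given in the sources used here.

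At the *Malat1* locus nearly all counts lay on the *Gm37376* side. In iMS*Bmal1*+/+ muscle, *Malat1* received 183, 200 and 231 counts, against 265, 214 and 313 in iMS*Bmal1*-/- muscle. In iMS*Bmal1*+/+ muscle, *Gm37376* received 45250, 38760 and 53282 counts, against 44820, 33579 and 42521 in iMS*Bmal1*-/- muscle, and it ranked 9 or 10 among all genes of each library. In every library the short model thus held between 136 and 247 counts for each count on *Malat1*.

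At the *Zfp106* locus the layout was the same. In iMS*Bmal1*+/+ muscle, *Zfp106* received 215, 219 and 312 counts, against 263, 190 and 298 in iMS*Bmal1*-/- muscle. In iMS*Bmal1*+/+ muscle, *Gm26899* received 24284, 24294 and 34726 counts, against 27199, 16121 and 22525 in iMS*Bmal1*-/- muscle, and it ranked between 12 and 14. The facing side held between 75.6 and 113 counts for each count on *Zfp106*.

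In iMS*Bmal1*+/+ muscle, *Neat1* received 37, 38 and 38 counts, against 38, 45 and 44 in iMS*Bmal1*-/- muscle. Its rank among the gene counts was between 2348 and 3515, beside 521 to 914 for *Malat1* and 548 to 741 for *Zfp106*. The more counted side was the facing model at both loci that have one. Libraries kept the strand, but the strand setting used in counting is not given in the sources used here. A count is therefore the deposited count of the named gene, and which strand its RNA came from was not tested. Abundant muscle genes had the same layout over the 6 libraries. *Atp2a1* had 18498 counts against 1674470 on *Rabep2* opposite it, and *Ckm* had 9583 against 1092649 on *A930016O22Rik*. At *Mb* the facing gene had fewer counts.

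Per kilobase of exon, the order of the levels was the same in all 6 libraries. *Gm37376* stood highest, at 46162 ± 3048 CPM per kb in iMS*Bmal1*+/+ and 44072 ± 901 in iMS*Bmal1*-/- muscle (SD, n = 3). *Gm26899* followed with 3786 ± 167 and 3228 ± 327, and *Malat1* with 13.5 ± 1.17 and 18.7 ± 2.45 CPM per kb (SD, n = 3). *Zfp106* came next at 10.8 ± 0.552 and 11.8 ± 1.55, and *Neat1* was lowest at 0.842 ± 0.131 and 1.03 ± 0.252 CPM per kb (SD, n = 3). The neighbors closest in this order were *Malat1* and *Zfp106*, whose libraries did not overlap within either genotype.

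**Figure D2:**
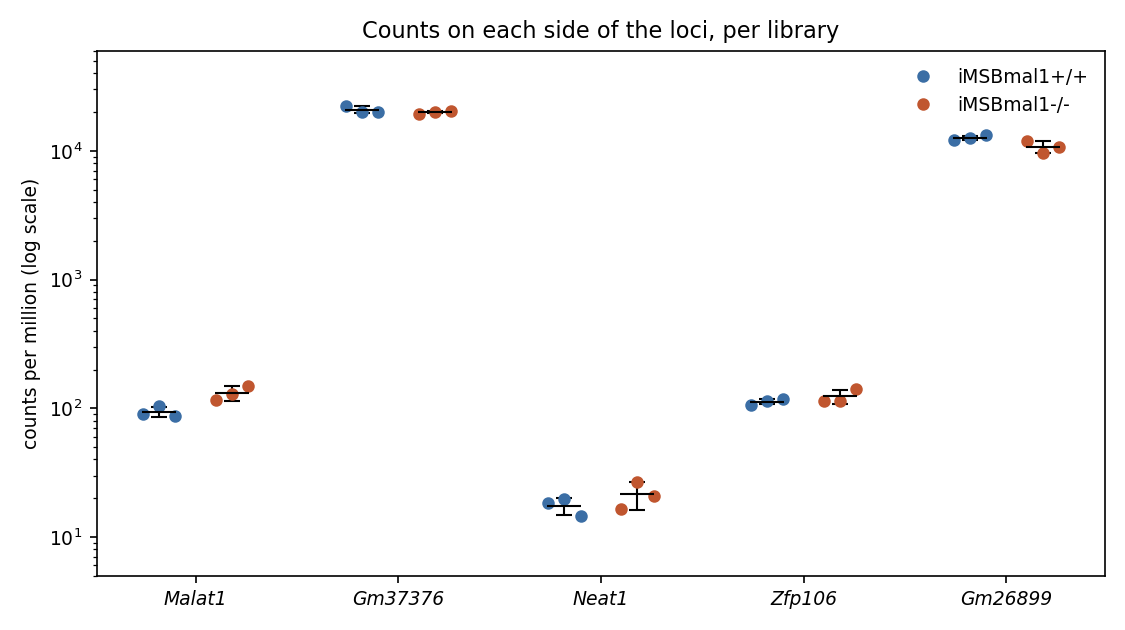
CPM of each gene (vertical axis, log scale) in the 3 iMS*Bmal1*+/+ (blue) and 3 iMS*Bmal1*-/- (orange) libraries, in the order of the replicate number, with the mean and SD in black. *Gm37376* and *Gm26899* lie between 9657 and 22501 CPM, and the 3 genes named for the loci between 14.4 and 149 CPM.

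The *Malat1* level was 91.0, 103 and 87.7 CPM across iMS*Bmal1*+/+ replicates, against 115, 128 and 149 CPM across iMS*Bmal1*-/- replicates. Every iMS*Bmal1*-/- library was above every iMS*Bmal1*+/+ library, which was also the case for 604 of the 6831 tested genes (8.84%). The means were 94.0 ± 8.20 and 131 ± 17.1 CPM (SD, n = 3). The log2 fold change was 0.48 (standard error 0.13, 95% confidence interval 0.20 to 0.76, edgeR adjusted p = 0.0822), which missed the threshold of 0.05. A fit with the replicate number as a block gave an edgeR adjusted p of 0.0358, although the labels do not say that the numbers pair mice.

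The *Gm37376* level was 22501, 20009 and 20224 CPM across iMS*Bmal1*+/+ replicates, against 19502, 20115 and 20276 CPM across iMS*Bmal1*-/- replicates. The groups overlapped, and iMS*Bmal1*+/+ replicate 1 stood above the other 5 libraries. The log2 fold change was -0.07 (standard error 0.10, 95% confidence interval -0.29 to 0.15, adjusted p = 0.878 from edgeR), and -0.02 without that replicate. With both sides added, the *Malat1* locus measured 21005 ± 1378 CPM in iMS*Bmal1*+/+ and 20095 ± 424 in iMS*Bmal1*-/- muscle (SD, n = 3), and for the sum the log2 fold change was -0.06 (standard error 0.10, edgeR adjusted p = 0.883, in a table where 123 of 6829 genes, 1.8%, were past the threshold).

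The *Neat1* level was 18.4, 19.6 and 14.4 CPM across iMS*Bmal1*+/+ replicates, against 16.5, 27.0 and 21.0 CPM across iMS*Bmal1*-/- replicates. The groups overlapped. Its log2 fold change was 0.29 with a 95% confidence interval from -0.23 to 0.81 (standard error 0.25, adjusted p = 0.725 from edgeR), with at most 45 counts per library. Leaving out iMS*Bmal1*-/- replicate 2 gave 0.11, and leaving out iMS*Bmal1*+/+ replicate 3 gave 0.16. In the other direction, leaving out iMS*Bmal1*-/- replicate 1 gave 0.45.

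The *Zfp106* level was 107, 113 and 118 CPM across iMS*Bmal1*+/+ replicates, against 114, 114 and 142 CPM across iMS*Bmal1*-/- replicates. The groups overlapped, with iMS*Bmal1*-/- replicate 3 above the rest. The log2 fold change was 0.13 (standard error 0.13, 95% confidence interval -0.14 to 0.40, adjusted p = 0.778 from edgeR), and 0.02 without that replicate.

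The *Gm26899* level was 12075, 12541 and 13181 CPM across iMS*Bmal1*+/+ replicates, against 11835, 9657 and 10741 CPM across iMS*Bmal1*-/- replicates. Every iMS*Bmal1*-/- library was below every iMS*Bmal1*+/+ library, by a narrow margin for iMS*Bmal1*-/- replicate 1, and the same was found for 577 of the 6831 tested genes (8.45%). The log2 fold change was -0.23 (standard error 0.11, 95% confidence interval -0.46 to -0.0035, adjusted p = 0.412 from edgeR), which missed the threshold, and it was -0.15 without iMS*Bmal1*-/- replicate 2. With both sides added, the *Zfp106* locus measured 12712 ± 561 CPM in iMS*Bmal1*+/+ and 10868 ± 1089 in iMS*Bmal1*-/- muscle (SD, n = 3), and for the sum the log2 fold change was -0.23 (standard error 0.11, edgeR adjusted p = 0.420).

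All 5 genes passed the filter on low counts and edgeR put 0 of them past the threshold, in a comparison in which 125 of 6831 tested genes were (1.83%), 52 of them higher (0.761%) and 73 lower (1.07%) in iMS*Bmal1*-/- muscle. At an unadjusted p under 0.05 edgeR had 2 of them, *Malat1* and *Gm26899*, as it had 814 of all tested genes (11.9%). DESeq2, which tested 3466 genes, also put 0 of the 5 past the adjusted threshold (122 of all genes, 3.52%) and 2 under the unadjusted 0.05 (583, 16.8%). The same held for limma, 0 of the 5 adjusted (122 of 6831, 1.79%) and 2 unadjusted (833, 12.2%). When libraries were scaled by their totals alone, the split over all genes was 65 higher and 55 lower.

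The share of a locus's counts that lay on the named gene does not depend on how the libraries are scaled to each other. *Malat1* took 0.403%, 0.513% and 0.432% of the counts of its locus in iMS*Bmal1*+/+ muscle, against 0.588%, 0.633% and 0.731% in the iMS*Bmal1*-/- libraries. The Wilson 95% intervals of the single libraries ran from 0.349 to 0.465%, 0.447 to 0.589% and 0.380 to 0.491% in iMS*Bmal1*+/+ and from 0.521 to 0.663%, 0.554 to 0.724% and 0.654 to 0.816% in iMS*Bmal1*-/- muscle, and, like the floor of 3 counts, cover counting error only. The share was higher in each iMS*Bmal1*-/- library than in any iMS*Bmal1*+/+ library, although the intervals of iMS*Bmal1*+/+ replicate 2 and iMS*Bmal1*-/- replicates 1 and 2 overlapped. The means were 0.449 ± 0.0573% and 0.651 ± 0.0730% (SD, n = 3; two-sided exact permutation test, p = 0.1, the smallest that 3 libraries against 3 can give).

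*Zfp106* took 0.878%, 0.893% and 0.890% of the counts of its locus in iMS*Bmal1*+/+ muscle, against 0.958%, 1.16% and 1.31% in the iMS*Bmal1*-/- libraries. The Wilson 95% intervals lay between 0.768 and 1.02% over the iMS*Bmal1*+/+ libraries, and were 0.849 to 1.08%, 1.01 to 1.34% and 1.17 to 1.46% in the iMS*Bmal1*-/- libraries. The groups did not overlap, but iMS*Bmal1*-/- replicate 1 lay within the counting error of the iMS*Bmal1*+/+ libraries. The means were 0.887 ± 0.00841% and 1.14 ± 0.175% (SD, n = 3; two-sided exact permutation test, p = 0.1, again the smallest possible).

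Other pairs of facing genes gave the background for these shares, in a comparison added after the data had been seen. Pairs were taken with at least 5000 counts over the 6 libraries, at least 60 on the less counted side and under 10% there, which left 140 pairs beside the 2 loci. Some pairs share a gene, and the 140 hold 131 different genes on the less counted side. The share of the less counted side was higher in every iMS*Bmal1*-/- library than in any iMS*Bmal1*+/+ library in 20 of the 140 pairs (14.3%; 19 different genes) and lower in 2. Summed over the 140 pairs, it was 1.80%, 2.15% and 1.75% in iMS*Bmal1*+/+ muscle, against 2.09%, 2.45% and 2.58% in iMS*Bmal1*-/- muscle. The summed shares of the groups overlapped through iMS*Bmal1*+/+ replicate 2 (two-sided exact permutation test, p = 0.2). By their group means, 92 of the 140 pairs had a higher share in iMS*Bmal1*-/- muscle, with a median share of 1.70% in iMS*Bmal1*+/+ and 1.86% in iMS*Bmal1*-/- muscle. The part of this shift across pairs in the *Malat1* and *Zfp106* shares was not tested. Averaged over both groups, the share was smaller than that of *Malat1* in 8 of the 140 pairs and smaller than that of *Zfp106* in 35.

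**Figure D3:**
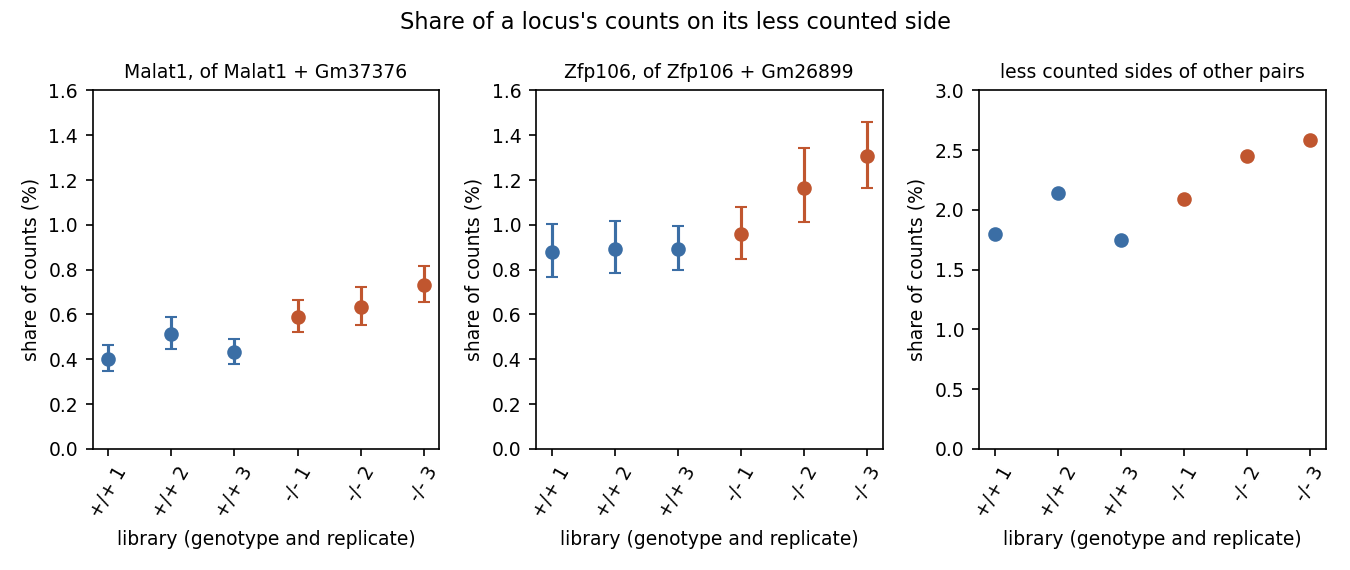
Share of counts (vertical axis, %) on *Malat1* and *Zfp106* of the counts on both sides of their locus, with Wilson 95% intervals, and the summed share of the less counted sides of 140 other facing pairs, in each of the 3 iMS*Bmal1*+/+ (blue) and 3 iMS*Bmal1*-/- (orange) libraries. The *Malat1* shares run from 0.403 to 0.731% and the *Zfp106* shares from 0.878 to 1.31%, and the third panel has its own scale.

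All 12 markers of skeletal muscle fibers (*Acta1*, *Ckm*, *Mylpf*, *Tnnt3*, *Tnni2*, *Tnnc2*, *Atp2a1*, *Myh4*, *Myh1*, *Pvalb*, *Mb* and *Actn3*) were detected and tested, and *Myh4*, a fast myosin heavy chain, was the most abundant. Their summed level was 8581, 11062 and 9844 CPM in the iMS*Bmal1*+/+ libraries, against 11735, 12121 and 13937 CPM in the iMS*Bmal1*-/- libraries. An annotated gene faces 5 of the 12, and it had more counts than the marker at *Ckm*, *Tnnc2*, *Atp2a1* and *Myh1* but fewer at *Mb*. The markers with more counts opposite them are less counted sides among the 140 pairs. Their mean shares in iMS*Bmal1*+/+ and then iMS*Bmal1*-/- muscle were 0.786 and 0.966% (*Ckm*), 0.213 and 0.268% (*Tnnc2*), 0.956 and 1.29% (*Atp2a1*), and 4.15 and 6.39% (*Myh1*). The groups of these shares overlapped except at *Myh1*. The marker sum, like the *Malat1* level, was higher in every iMS*Bmal1*-/- library than in any iMS*Bmal1*+/+ library. The part of the marker level in the *Malat1* value was not tested, nor was the part of the shift across pairs in the marker level.

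Of the 12 muscle markers, *Mylpf* and *Pvalb* rose with edgeR, 2 of 12 beside 0.761% of all tested genes, and with limma, where 45 of 6831 genes rose (0.659%). With DESeq2 5 of the 12 rose (also *Acta1*, *Ckm* and *Tnnt3*), beside 40 of 3466 genes (1.15%), and 0 fell with any of these tools. At an unadjusted p under 0.05 were 11 of the 12 with edgeR, beside 11.9% of all tested genes, 10 with DESeq2 (16.8%) and 10 with limma (12.2%). The median log2 fold change in edgeR was 0.44 with 12 of 12 positive, beside -0.00087 over all tested genes. *Mylpf*, a regulatory light chain of fast myosin, rose from 179, 237 and 286 counts to 375, 315 and 471 counts (log2 fold change 0.85, standard error 0.14, edgeR adjusted p = 0.00241). *Pvalb*, a calcium buffer of fast fibers, rose from 57, 82 and 92 counts to 143, 113 and 141 counts (log2 fold change 0.90, standard error 0.17, edgeR adjusted p = 0.0070), and neither gene's groups overlapped. Of the 5 facing genes, 4 were tested, with a median log2 fold change of 0.01, and 1 fell, beside 1.07% of all tested genes. The values were 0.13 for *A930016O22Rik*, whose groups did not overlap, 0.14 for *Ube2c* and -0.11 for *Rabep2*. *Myhas*, an antisense gene of the myosin heavy chain cluster opposite *Myh1*, fell from 76065, 61643 and 60422 counts to 48835, 36870 and 37063 counts, and its groups did not overlap. Its mean fell from 30860 ± 7491 to 20336 ± 2344 CPM (SD, n = 3; log2 fold change -0.60, standard error 0.15, edgeR adjusted p = 0.0447). That call was lost in 10 of 17 alternatives. Among them were the edgeR fits that left out iMS*Bmal1*+/+ replicate 1 (adjusted p = 0.151) or 2 (0.122), or iMS*Bmal1*-/- replicate 1 (0.119), 2 (0.0879) or 3 (0.229).

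Markers of other cells in the muscle were sparsely counted. Of 37 such genes, edgeR and limma tested 8 and DESeq2 tested 3, and each put 0 past the threshold (1 of the 8, *Csf1r*, had an unadjusted p under 0.05 with edgeR, as had 11.9% of all tested genes). The summed levels were 2.79 ± 0.444 and 2.37 ± 1.66 CPM for satellite cells (4 genes, led by *Cdh15*), 29.7 ± 12.4 and 34.7 ± 12.8 for fibroblasts (6 genes, led by *Col3a1*) and 61.7 ± 3.12 and 56.5 ± 16.3 for endothelial cells (5 genes, led by *Tek*), each in iMS*Bmal1*+/+ and then iMS*Bmal1*-/- muscle (SD, n = 3). They were 73.5 ± 15.4 and 57.2 ± 7.21 CPM for macrophages (6 genes, led by *Csf1r*), 8.76 ± 2.03 and 9.92 ± 0.315 for adipocytes (5 genes, led by *Fabp4*), 167 ± 15.4 and 183 ± 25.7 for blood (5 genes, led by *Alas2*) and 3.19 ± 2.16 and 4.88 ± 3.23 for nerve and Schwann cells (6 genes, led by *Pmp22*). The groups overlapped in each of these sums. The macrophage, blood and adipocyte sums were nearly those of 1 gene each. *Csf1r* alone was at 71.0 and 52.7 CPM, *Alas2* at 165 and 181, and *Fabp4* at 8.25 and 9.92, in the same order. The hemoglobin genes, which make up the rest of the blood list, had at most 3 counts in any library. *Cd68*, a macrophage marker below the filter, went the other way from *Csf1r*. It had 6, 4 and 3 counts against 7, 6 and 10, and its groups did not overlap in CPM. The remaining macrophage genes had at most 1 count in any library. *Adgre1*, a defining macrophage marker, and *Lep*, an adipocyte hormone, had 0 counts in all 6 libraries. Of the genes that face these markers, *Gm43109*, *Apex2* and *Gm15541* were tested with edgeR and limma, which put 0 of the 3 past the threshold, and DESeq2 tested 0 of them (1 of the 3, *Gm15541*, opposite *Prx*, had an unadjusted p under 0.05 with edgeR). The part of these cells in the values of the 5 genes was not tested.

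The protein partners of these RNAs were counted at low levels. Of 15 paraspeckle proteins, 4 were tested, of which edgeR called 0, with a median log2 fold change of -0.04 (0.10 without iMS*Bmal1*-/- replicate 3). They were *Hnrnph3* (19.5 ± 6.21 and 19.7 ± 3.58 CPM), *Hnrnpk* (17.6 ± 6.44 and 13.2 ± 1.59), *Sfpq*, a core paraspeckle protein (9.23 ± 3.27 and 8.83 ± 2.56), and the chromatin remodeler *Smarca4* (8.60 ± 2.51 and 9.22 ± 0.285), in iMS*Bmal1*+/+ and iMS*Bmal1*-/- muscle (SD, n = 3). The 7 genes that face paraspeckle proteins were all tested, with a median of -0.04 and 0 past the threshold, and were led by *Masp2*, opposite *Tardbp*, at 181 ± 11.9 and 170 ± 11.2 CPM (SD, n = 3).

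Of 19 nuclear speckle proteins, 7 were tested, edgeR called 0 and the median was 0.09 (-0.09 without iMS*Bmal1*+/+ replicate 2). *Son*, a scaffold of the speckles, was at 34.2 ± 5.55 CPM in iMS*Bmal1*+/+ and 34.9 ± 2.35 in iMS*Bmal1*-/- muscle (SD, n = 3). *Srrm2*, the other large speckle scaffold, was at 13.6 ± 3.31 and 21.4 ± 2.43 CPM (SD, n = 3; log2 fold change 0.65, adjusted p = 0.279 from edgeR). The groups overlapped for *Son* and not for *Srrm2*. Of 6 genes that face speckle proteins, 5 were tested, with a median of -0.13 and 0 past the threshold. Among partner proteins of *Zfp106*, the splicing factor *Rbm39* was at 8.68 ± 1.34 and 9.26 ± 1.59 CPM (SD, n = 3; log2 fold change 0.08, edgeR adjusted p = 0.963), and *Tardbp* was below the filter.

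Of 13 genes for the cleavage and trimming of tRNA-like ends, 3 were tested (*Trnt1*, *Pop5* and *Rpph1*), with a median of 0.23 (-0.01 without iMS*Bmal1*-/- replicate 3) and 0 past the threshold, and so were 3 of 4 genes that face them, with a median of 0.14 and 0 past the threshold. *Trnt1*, which adds CCA to the ends of tRNAs, was at 187 ± 19.4 CPM in iMS*Bmal1*+/+ and 174 ± 7.28 in iMS*Bmal1*-/- muscle (SD, n = 3). *Elac2*, the RNase Z that cuts behind the tRNA-like end, was below the filter, at 3.96 and 4.14 CPM on average. Of 17 genes of the neuromuscular junction and of denervated muscle, listed for the known role of *Zfp106*, 4 were tested, with a median of -0.16 (0.06 without iMS*Bmal1*+/+ replicate 2) and 0 past the threshold, and of 4 genes that face them 3 were tested, with a median of 0.21 and 0 past the threshold. *Chrnb1*, the beta subunit of the acetylcholine receptor, was the most abundant of them (64.0 ± 10.8 and 51.0 ± 4.02 CPM, SD, n = 3), and *Myog* had 0 counts in all 6 libraries, which allows up to 1.80 CPM. The *Chrnb1* groups did not overlap (log2 fold change -0.32, adjusted p = 0.451 from edgeR).

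Among 35 other long non-coding RNAs found by symbol in the tables, 10 were tested, with a median log2 fold change of -0.09, and 0 were past the threshold. In iMS*Bmal1*+/+ muscle, *Kcnq1ot1*, a nuclear RNA of an imprinted cluster, had 155, 135 and 275 counts, against 293, 218 and 234 in iMS*Bmal1*-/- muscle. Relative to library size the groups did not overlap, at 83.7 ± 18.3 and 123 ± 10.2 CPM (SD, n = 3; log2 fold change 0.55, adjusted p = 0.0757 from edgeR). *Snhg14*, a host of small nucleolar RNAs, was the most abundant at 816 ± 54.3 and 794 ± 38.2 CPM (SD, n = 3), and *Dnm3os*, the opposite strand transcript of *Dnm3*, was at 40.4 ± 9.83 and 48.0 ± 7.14. *Snhg14* is the more counted side of a facing pair. It had 10239 counts over the 6 libraries, against 100 on *Ube3a* opposite it, and which strand they came from was not tested. A further 12 of the 35 RNAs had 0 counts in every library, *Meg3* and *Rian* among them. The listed *Oip5os1* stands in the tables under its synonym *1700020I14Rik*, which was noticed after the results were known, and is left out of the counts over the lists. It rose from 24, 15 and 21 counts to 47, 33 and 44 counts (9.22 ± 2.36 and 20.4 ± 0.608 CPM, SD, n = 3), and its groups did not overlap. Its log2 fold change was 1.15 (standard error 0.27, edgeR adjusted p = 0.0336, limma adjusted p = 0.0322), it was below the filter of DESeq2, and with it 1 of 11 tested RNAs of the list rose, beside 0.761% of all tested genes. Its call was lost on leaving out iMS*Bmal1*+/+ replicate 2 (edgeR adjusted p = 0.0938) or 3 (0.117), or iMS*Bmal1*-/- replicate 1 (0.119), 2 (0.0981) or 3 (0.0888).

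Of the 27 genes that face these RNAs, 18 were tested, with a median of -0.14, and 1 fell, beside 1.07% of all tested genes. *Ccdc107*, which faces *Rmrp*, the RNA of the RNase MRP complex, fell from 5677, 5664 and 5907 counts to 3551, 2607 and 4327 counts (2663 ± 368 and 1723 ± 295 CPM, SD, n = 3). The groups did not overlap. Its log2 fold change was -0.63 (standard error 0.13, edgeR adjusted p = 0.0127). This call was lost on leaving out iMS*Bmal1*+/+ replicate 2 (adjusted p = 0.0565), or iMS*Bmal1*-/- replicate 1 (0.0924) or 2 (0.0942). *Rmrp* itself had between 11 and 37 counts per library and a log2 fold change of -0.65 (adjusted p = 0.447 from edgeR). Over the lists other than cell markers, 4 of 29 tested genes had an unadjusted p under 0.05 with edgeR, beside 11.9% of all tested genes (*H19*, *Srrm2*, *Myh8* and *Kcnq1ot1*), and so did 3 of 36 tested facing genes (*Ccdc107*, *E230016M11Rik* and *Gm27845*), while DESeq2, which tested 16 listed and 27 facing genes, and limma each put 0 of the listed genes and 1 facing gene, *Ccdc107*, past the adjusted threshold.

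Around the 3 loci, 28 further annotated genes lie within 100 kb, of which edgeR and limma tested 16 and DESeq2 11, each with 0 past the threshold (1 of the 16, *Ehbp1l1*, had an unadjusted p under 0.05 with edgeR, as had 11.9% of all tested genes). The median log2 fold change was -0.01 over 12 genes on chromosome 19 and -0.11 over 4 on chromosome 2. *Frmd8*, 4224 bp from *Neat1* on the same strand, was at 142 ± 2.56 CPM in iMS*Bmal1*+/+ and 143 ± 23.3 in iMS*Bmal1*-/- muscle (SD, n = 3), and *Ltbp3* at 106 ± 9.61 and 96.4 ± 6.26. *Capn3*, a calpain typical of skeletal muscle that ends on the plus strand 1907 bp from *Zfp106*, was at 24.2 ± 3.69 and 21.7 ± 1.74 CPM (SD, n = 3). *Ganc*, on chromosome 2, was at 63.7 ± 6.14 and 57.1 ± 9.03. The 5 small RNA models nested in or next to *Malat1* and *Neat1* on their own strand had 0 counts in every library, and so did *Fam89b*. The nested models share all their bases with an exon of *Malat1* or *Neat1*. How reads overlapping both genes were counted is not given in the sources used here, so these zeros do not measure the small RNAs.

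The genes whose log2 CPM ran most like each member over the 6 libraries were sought among 2910 tested genes with a mean of at least 20 CPM, as a description that includes the difference between genotypes. For *Malat1* they were *Aldoa*, a glycolytic enzyme of muscle (Pearson r = 0.975), *Myl1*, a light chain of fast myosin (0.969), and *Tmem88* (0.967). *Aldoa* was at 380, 470 and 375 CPM in iMS*Bmal1*+/+ muscle, against 463, 521 and 599 CPM in iMS*Bmal1*-/- muscle. Like *Malat1* it was lowest in iMS*Bmal1*+/+ replicate 3 and highest in iMS*Bmal1*-/- replicate 3, and its groups overlapped slightly. *Aldoa* is also the less counted side of a facing pair. It had 5854 counts over the 6 libraries, against 305517 on *Fam57b*. Its mean share was 1.65% in iMS*Bmal1*+/+ and 2.18% in iMS*Bmal1*-/- muscle, with overlapping groups. No annotated exon faces *Myl1*.

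*Zfp106* ran most like *Atxn2* (0.978), which encodes an RNA-binding protein, *Gm26885* (0.970) and *Nfix* (0.963), a transcription factor of the muscle lineage. *Nfix* is a less counted side, with 465 counts over the 6 libraries against 9045 on *G430095P16Rik*. *Neat1* ran most like *Gm43126* (0.981), *Prrc2b* (0.979) and *Gm16897* (0.954). For the facing sides, *Gm37376* was closest to *Sh3bp5* (0.957), *Gm3848* (0.934) and *Gm17690* (0.925), which all were highest in iMS*Bmal1*+/+ replicate 1.

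*Gm26899* was closest to *Gm9988* (0.975), *Platr31* (0.973) and *Gm20721* (0.973). Like *Gm26899*, *Gm20721* is a more counted side, with 139588 counts over the 6 libraries against 931 on *Gnas*. *Platr31*, opposite *Tigar*, was at 172, 170 and 185 CPM in iMS*Bmal1*+/+ muscle, against 138, 96.4 and 124 CPM in iMS*Bmal1*-/- muscle. It was the 1 gene of these 15 past the threshold, beside 1.83% of all tested genes (log2 fold change -0.55, adjusted p = 0.0356 from edgeR). The call was lost on leaving out iMS*Bmal1*-/- replicate 2, its lowest library (edgeR adjusted p = 0.237), and also iMS*Bmal1*-/- replicate 3 (0.0852) or iMS*Bmal1*+/+ replicate 1 (0.0739), 2 (0.0656) or 3 (0.117).

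Promoter sequences (300 bases around the start, RefSeq, GRCm38.p6) were available for *Malat1* and *Zfp106*, and *Neat1*, *Gm37376* and *Gm26899* have no entry. The motif CACGTG, the E-box bound by the BMAL1 and CLOCK pair, was searched on both strands and was not found in either window, whereas 7.15% of 32851 promoters of this length hold it. CANNTG, which includes CACGTG, occurred 1 time at *Malat1* and 2 times at *Zfp106*, and at least once in 72.3% of promoters. A missing match says only that these letters are not in the window.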

How the data were processed

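The authors mapped the reads of the 6 TA muscle libraries to mm10 with HISAT2, counted them with HTSeq and deposited raw counts per gene. They also deposited a table of normalized signal, in which each count is divided by the DESeq2 size factor of its library. Tool versions, annotation and strand setting are not given in the sources used here. Multiplied back, 100% of the nonzero normalized values came out whole within 0.001, and edgeR on these reads, an alternative chosen after seeing the data, again called 125 genes. The reads so recovered are the raw counts again, so this agreement was fixed in advance. Columns were assigned by sample label, and 0 were left out. Of 52636 identifiers, 147 were not found in GENCODE mouse release 21 (GRCm38). No batches are given in the labels. No replicates were as alike as sampling alone would make them (chi-square over degrees of freedom between 3.43 and 12.9 within groups).

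Here, genes were kept with edgeR's filter on low counts, normalized with TMM and compared with the quasi-likelihood test (edgeR 4.0.16, R 4.3.3), two-sided, with Benjamini-Hochberg adjustment over 6831 genes at 0.05. The common biological coefficient of variation was 14.8%. Shares were compared with exact permutation tests (scipy 1.17.1, numpy 2.4.6, pandas 2.3.3). Figures used matplotlib 3.10.9. The functions were tested on simulated data first. Alternatives were DESeq2 1.42.0, limma 3.58.1 on the authors' normalized values (pseudocount 1 or 0.5), other filters and scalings, a block for replicate number, and omission of single libraries. The members and lists were chosen with earlier results of these data known.

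Named were the 5 members, *Arntl*, each gene of a list, facing a listed gene or within 100 kb that was past the threshold, up to 4 further genes of a list or neighborhood by mean CPM, and the 3 genes most correlated with each member (pseudocount 0.5 on log2 CPM). Outside this rule, *Rmrp*, *H19*, *Gm27845*, *Ehbp1l1*, *Capn3*, *Frmd8os*, *Fam89b*, *Meg3*, *Rian*, *Myog*, *Adgre1*, *Lep*, *Ube3a*, *Fam57b*, *G430095P16Rik*, *Gnas* and the hemoglobin genes were chosen for position, function or values after these were seen. Lists were matched by symbol. *Norad* and *Oip5os1* stand in the tables under the RefSeq synonyms *2900097C17Rik*, which is also listed, and *1700020I14Rik*, which was looked up after the results were known. An item of the lists is not reported here.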

Additional observations from a re-analysis of the deposited data

How the results depend on the processing

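Over 17 alternatives, the log2 fold changes of the 5 genes and of both locus sums kept their sign, and each stayed on its side of the threshold except *Malat1* in 1 fit. The edgeR fit on reads recovered from the normalized values is among the 17 and repeats the main fit by construction. *Malat1* ranged from 0.37 to 0.56 (adjusted p from 0.0358 to 0.332), *Gm37376* from -0.10 to -0.01, *Neat1* from 0.11 to 0.45, *Zfp106* from 0.02 to 0.19 and *Gm26899* from -0.31 to -0.15. The exception was the fit with the replicate number as a block, in which *Malat1* had a log2 fold change of 0.48 and an adjusted p of 0.0358 from edgeR, and 220 genes were past the threshold instead of 125. The labels do not say that the numbers pair mice. Libraries with the same number had deviations from their group means that correlated at -0.036, -0.015 and -0.030. No library correlated best with its own number, but 3 libraries per group are too few to exclude a pairing. The block changed no other call among these results. The number of genes past the threshold was 219 without a filter on low counts and 208 with limma without a filter, where more genes were tested, and with 1 library left out it ranged from 60 to 109 (60 on leaving out iMS*Bmal1*-/- replicate 2, 66 on leaving out iMS*Bmal1*-/- replicate 1), with fewer samples. With 1 library left out, the difference in share ranged from 0.161 to 0.233 percentage points for *Malat1* and from 0.174 to 0.348 for *Zfp106*. *Mylpf* and *Pvalb* passed the threshold in 17 of 17 alternatives, *Ccdc107* in 14, *Platr31* in 12 and *Myhas* in 7, and *1700020I14Rik* in 11 of the 16 that tested it. The medians of the paraspeckle, speckle, tRNA-like processing, denervation and fibroblast lists changed sign under at least 1 alternative, and that of the muscle markers ranged from 0.33 to 0.50. *Neat1* had between 37 and 45 counts per library, and most listed proteins were below the filter on low counts.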
